A study of Homo sapiens with 11 samples.

Results

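The genes described here set the pace of the G1 phase of the cell cycle: 6 inhibitors of cyclin-dependent kinases (CDKN1A, CDKN1B, CDKN1C, CDKN2A, CDKN2B and CDKN2C), the 3 D cyclins (CCND1, CCND2 and CCND3) and cyclin G2 (CCNG2). They were chosen by symbol, for their role, and make up 10 of the 60676 genes of the count table. All 10 were among the 19981 genes with enough reads to be tested. The cells were RWPE1, a line of immortalized prostate epithelial cells that is not tumorigenic, grown in serum-free keratinocyte medium. RWPE1 is known to carry human papillomavirus genes, whose products act on p53 and on the retinoblastoma protein. RNA of 3 normoxic libraries, called 0 h, was compared with RNA of cells kept at 1% oxygen for 6 h (3 libraries), 12 h (3 libraries) or 24 h (2 libraries). The medium of the hypoxic cells also held 10 mM HEPES buffer, so that low oxygen and the buffer cannot be told apart. The labels name replicates but no separate cultures, and the p-values below then measure only the spread between these libraries, which may be technical.

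In G1, a D cyclin binds CDK4 or CDK6 and starts the phosphorylation of the retinoblastoma protein, which releases E2F transcription factors and opens the way to DNA synthesis. INK4 inhibitors (CDKN2A, CDKN2B and CDKN2C) bind CDK4 and CDK6 themselves, whereas Cip/Kip inhibitors (CDKN1A, CDKN1B and CDKN1C) bind complexes of cyclin and kinase and restrain CDK2 in particular. CCNG2 is an unconventional cyclin that is known for high levels in cells leaving the cycle and as a target of FOXO factors. Hypoxia slows the cycle of many cells, and the hypoxia-inducible factors (HIFs) bind DNA at the short core written ACGTG or GCGTG.

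Promoters are shown for CCNG2 and CDKN2B, since both were called in the same direction at all 3 times of hypoxia, 1 upward and 1 downward, and each has a single start site in the RefSeq table. Each run covers 250 bases before the start site to 50 bases after it (GRCh38.p14, RefSeq), 5′ to 3′ on the strand of the gene, with capitals marking matches to the HIF core on either strand. The CCNG2 promoter lies on the plus strand at chr4:77156957-77157256 and the CDKN2B promoter on the minus strand at chr9:22009256-22009555.
CCNG2: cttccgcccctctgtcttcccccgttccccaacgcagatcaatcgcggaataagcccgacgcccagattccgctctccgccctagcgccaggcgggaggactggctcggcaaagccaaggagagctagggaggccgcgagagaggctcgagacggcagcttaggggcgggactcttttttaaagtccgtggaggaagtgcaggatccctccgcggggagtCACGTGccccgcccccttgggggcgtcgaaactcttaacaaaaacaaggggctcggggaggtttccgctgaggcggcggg
CDKN2B: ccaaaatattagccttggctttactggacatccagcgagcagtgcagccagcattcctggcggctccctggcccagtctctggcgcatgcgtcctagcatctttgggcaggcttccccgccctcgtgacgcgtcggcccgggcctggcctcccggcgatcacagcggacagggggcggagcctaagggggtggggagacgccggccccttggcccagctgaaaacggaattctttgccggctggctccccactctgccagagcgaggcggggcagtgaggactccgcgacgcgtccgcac
The CCNG2 window held CACGTG, a palindrome that matches the core once on each strand, and the CDKN2B window held no match. The core did not follow direction in the other genes called at all 3 times. CDKN2C, which was lower, had 3, 2 and 3 matches at its start sites. CCND3, which was higher, had 1 match at the start site of chr6:42048639-42048938 and none at its other start sites. Promoters were found for 7 of the 10 genes, with 12 start sites in all. CDKN1C, CCND1 and CCND2 had no entry. The core was present at 9 of these 12 start sites, against 48.4% of all 35116 promoters of this length. Counted by gene, it was present in 6 of the 7, for which no share over all genes was computed. CACGTG, which always holds the core, was present at 3 of the 12 (CCNG2 and 2 starts of CDKN2C), against 7.26% of all promoters. TGTTTAC, the FOXO motif, was present at 1 of the 12, a start of CCND3, against 3.42% of all. These matches describe letters in a window and were not tested as binding sites.

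Libraries held from 27496009 to 49488345 counts, and the 10 genes had from 69 counts (CDKN2C at 6 h) to 19753 counts (CDKN1A at 0 h) in a library. Levels are given as CPM (counts scaled to a common library depth) after TMM scaling, which lines up libraries on the bulk of their genes. TMM factors fell from between 1.29 and 1.32 at 0 h to 0.851 and 0.539 in 24 h replicates 1 and 2, and the 2 libraries at 24 h stood further apart than any other pair of one group (chi-square per degree of freedom 287, against 3.20 to 74.6). All 10 markers of basal and intermediate prostate epithelium were expressed, with a summed level between 8999 and 24046 CPM that was higher in every hypoxic library than in every normoxic one. Most of this sum at 0 h was KRT5 and KRT14 (means 7277 and 1203 CPM). Members of this list moved apart. KRT14 was called higher at all 3 times (1.21, 1.39 and 2.14 on the log2 scale). So were KRT8 (1.43, 1.72 and 2.59) and KRT18 (1.63, 1.92 and 2.48). KRT15 and TP63 were called lower at all 3 (-1.73, -1.27 and -1.07 for KRT15, and from -1.72 to -0.95 for TP63). The part of these markers in the results below was not tested. Of the luminal markers, KLK2 stayed under 1 CPM and KLK3 had no count in any library. Summed endothelial and leukocyte markers reached at most 0.257 and 0.506 CPM. Summed fibroblast and smooth muscle markers went from between 49.2 and 62.3 CPM at 0 h to 29.5 and 30.9 CPM at 24 h. Nearly all of this sum was COL1A1 (mean 52.8 CPM at 0 h). MYH11 was at 1.99 CPM at 0 h, and COL1A2, DCN and DES had means under 1 CPM. The part of this shift in the results was not tested either. In bulk libraries, fewer cells of a kind and less RNA per cell cannot be told apart. The hypoxia genes CA9 and EGLN3 were higher at every time, with log2 fold changes of 3.17 and 6.23 at 6 h and of 5.68 and 6.77 at 24 h (edgeR quasi-likelihood test).

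Against normoxia, the D cyclins and CCNG2 rose within 6 h, while 3 of the 6 inhibitors fell. Of the 10 genes, 7 were called at 6 h at an adjusted p under 0.05, 4 higher and 3 lower. At 12 h 6 were called, 4 higher and 2 lower, and at 24 h 7 were called, 5 higher and 2 lower. The share of all tested genes called in either direction was 52.8% at 6 h, 51.2% at 12 h and 61.2% at 24 h. By direction it was 25.1% higher and 27.7% lower at 6 h, 24.2% and 27.1% at 12 h, and 29.9% and 31.3% at 24 h. The median log2 fold change of the 10 genes was 0.59, 0.51 and 0.53 at the 3 times, beside -0.0021, -0.033 and -0.065 over all tested genes. CCND3 and CCNG2 were higher at all 3 times, as were 14.8% of all tested genes, and CDKN2B and CDKN2C were lower at all 3, as were 17.9%. Since the 3 comparisons share the normoxic libraries, these counts are not independent of each other.

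**Figure D1:**
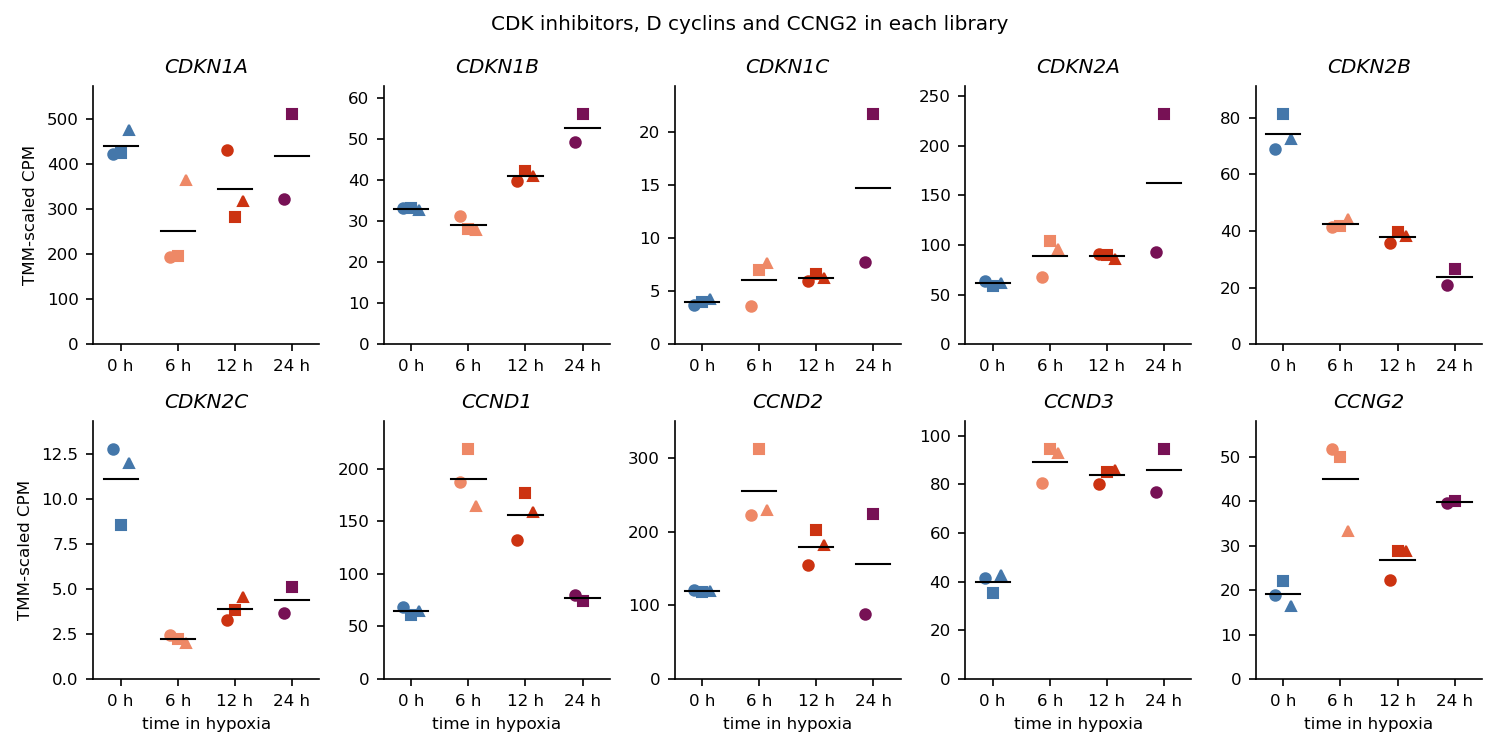
Level of each of the 10 genes in every library (y axes, TMM-scaled CPM, each from 0; x axes, time in hypoxia). Circles, squares and triangles are replicates 1, 2 and 3, and bars are group means. CCND3 and CCNG2 lie above all 0 h libraries at each hypoxic time and CDKN2B and CDKN2C below, while the 24 h libraries part in CDKN1C, CDKN2A and CCND2.

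CCND1, the D cyclin most often amplified in carcinomas, rose early and came back. Its level was 68.4, 61.0 and 65.1 CPM in the 0 h libraries. At 6 h it was 188, 219 and 164.6 CPM, at 12 h 132, 177 and 159 CPM, and at 24 h 79.8 and 74.4 CPM. All 6 h and 12 h libraries lay well above the normoxic ones, and the 24 h libraries lay above them by a small margin. The log2 fold change was 1.55 ± 0.15 (SE) at 6 h (2.94-fold, adjusted p = 7.15e-06) and 1.27 ± 0.15 at 12 h (adjusted p = 3.87e-05). At 24 h it was 0.25 ± 0.17 and was not called (adjusted p = 0.208). The drop itself was called, both from 12 h to 24 h (-1.02 ± 0.17, adjusted p = 0.00243) and from 6 h to 24 h (-1.30 ± 0.17, adjusted p = 0.000193), although the former was not called in a fit of those 2 groups alone (-1.05, adjusted p = 0.0658). LTO1, which lies opposite 10.4% of the exonic bases of CCND1, fell by 0.66 at 6 h and by 1.63 at 24 h on the log2 scale. Whether counting kept the strands apart is not given in the sources used here.

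CCND2, a D cyclin known as a target of MYC, measured 121, 118 and 119 CPM in the normoxic libraries. It reached 223, 313 and 229 CPM at 6 h and 154, 203 and 181 CPM at 12 h. The 24 h libraries disagreed, with 88.1 CPM in replicate 1, below every normoxic library, and 224 CPM in replicate 2, above them all. Only the rise at 6 h was called (log2 fold change 1.09 ± 0.27, adjusted p = 0.00444), whereas the values were 0.59 ± 0.27 at 12 h (adjusted p = 0.0827) and 0.39 ± 0.30 at 24 h (adjusted p = 0.270). Without 24 h replicate 1 the 24 h value was 0.85 (adjusted p = 0.0015), and without 24 h replicate 2 it turned to -0.46 (adjusted p = 0.0728). Leaving out either 24 h library also brought the 12 h value under the threshold, at 0.56 (adjusted p = 0.00358) and 0.58 (adjusted p = 0.00308). A protein-coding gene without a symbol shares 12.5% of the exonic bases of CCND2 on the same strand. That gene had 0 CPM at 0, 6 and 12 h, and the effect of the overlap on the CCND2 level was not tested.

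CCND3 kept its rise for the whole course. Its level was 41.4, 35.2 and 42.6 CPM at 0 h, 80.5, 94.5 and 92.7 CPM at 6 h, 80.2, 85.0 and 86.1 CPM at 12 h, and 76.8 and 94.7 CPM at 24 h. Every hypoxic library lay above every normoxic one and the hypoxic groups overlapped each other. Against 0 h it changed by a log2 of 1.17 ± 0.14 at 6 h, 1.08 ± 0.14 at 12 h and 1.11 ± 0.15 at 24 h (adjusted p = 2.44e-05, 5.88e-05 and 4.75e-05). None of these calls was lost when any single library was left out.

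Within a library, the CCND3 share of the D cyclins was highest at 24 h. The shares of CCND1 and CCND2 differed between the 24 h libraries. Counted per kb of all exonic bases, CCND1 made up 38.4 ± 0.66% (SD, n = 3) of the D cyclins at 0 h, 45.8 ± 2.48% at 6 h and 46.9 ± 1.33% at 12 h. CCND3 made up 19.4 ± 1.24%, 17.9 ± 2.15% and 21.0 ± 1.87% at these times and 32.4% and 27.3% in the 24 h libraries, more than in any earlier library. In 24 h replicate 1 CCND1 led with 40.7%, whereas in replicate 2 CCND2 led with 46.7%. The log2 ratio of CCND1 to CCND3 was 0.99 ± 0.09 at 0 h, 1.36 ± 0.22 at 6 h, 1.16 ± 0.17 at 12 h and 0.13 ± 0.28 (n = 2) at 24 h. Over all 8 hypoxic against 3 normoxic libraries it differed by -0.0070 (2-sided exact permutation test, p = 0.958), an average over times that lay on both sides of the normoxic value. With the length of the canonical transcript in place of all exonic bases, a choice made after seeing the data, CCND3 made up 36.7% at 0 h and 50.6% at 24 h, so the rank of the D cyclins rests on the length used.

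**Figure D2:**
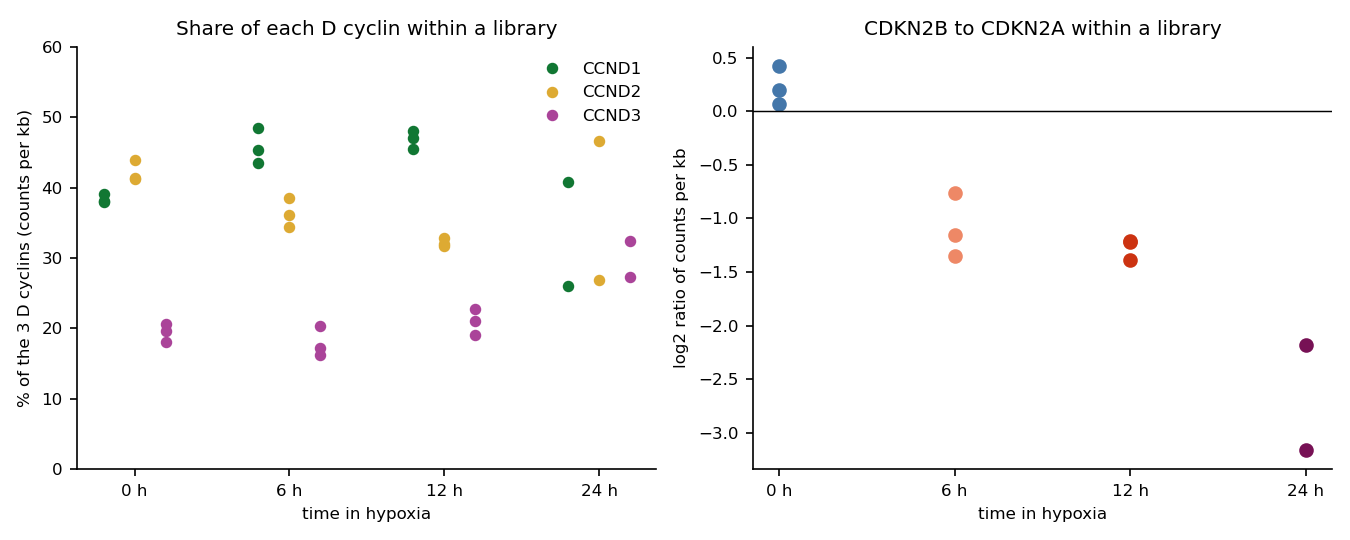
Left, share of each D cyclin in the sum of the 3 (y axis, percent, counts per kb of exonic bases) by time in hypoxia, 1 point per library. Right, log2 ratio of CDKN2B to CDKN2A counts per kb of exonic bases in each library, where 0 marks equal levels at this choice of length. The CCND3 share is highest at 24 h, and the ratio is above 0 in all 3 normoxic libraries and below 0 in all 8 hypoxic ones. The side of 0 on which the normoxic libraries lie rests on the length used.

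CCNG2 rose by 6 h and fell back in part by 12 h. It measured 18.9, 22.1 and 16.6 CPM at 0 h, 51.9, 49.98 and 33.4 CPM at 6 h, 22.4, 28.8 and 28.9 CPM at 12 h, and 39.8 and 40.1 CPM at 24 h. Every hypoxic library lay above every normoxic one, the nearest being 12 h replicate 1. Its log2 fold change against 0 h was 1.23 ± 0.19 at 6 h (2.35-fold, adjusted p = 0.000157), 0.48 ± 0.18 at 12 h (adjusted p = 0.045) and 1.06 ± 0.20 at 24 h (adjusted p = 0.000708). The 12 h call did not survive the removal of any one of 5 libraries, namely replicates 1 and 3 at 0 h, replicate 2 at 6 h and replicates 2 and 3 at 12 h (adjusted p from 0.0529 to 0.175), and it was also missed with median-of-ratios factors (0.46, adjusted p = 0.0538). The calls at 6 h and 24 h held without any single library. From 12 h to 24 h the value was 0.58 ± 0.20 and was not called (adjusted p = 0.0503). Between 6 h and 12 h the level fell by 0.75 ± 0.18 (adjusted p = 0.0374), a call that was lost without any one of 8 of the 11 libraries, with values from -0.82 to -0.64 (adjusted p from 0.0581 to 0.141). The genes whose log2 CPM followed that of CCNG2 most closely over the 11 libraries, of 9024 genes with a mean of at least 10 CPM, were SRSF6, RNF139, PHTF2, RNF217 and PPP6R3, with Pearson r from 0.949 to 0.937. For CCND1 they were RAB3B, CHPF2, UBAP2, ZC3H18 and LRRC8A, with r from 0.987 to 0.985. The libraries share the course of time in both cases, and these r are descriptions.

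Among the INK4 inhibitors, CDKN2B and CDKN2C fell and CDKN2A did not. CDKN2B encodes the inhibitor of CDK4 and CDK6 that transforming growth factor beta induces in epithelial cells. It was at 68.8, 81.5 and 72.7 CPM at 0 h, 41.4, 41.9 and 44.4 CPM at 6 h, 35.7, 39.8 and 38.1 CPM at 12 h, and 21.1 and 26.8 CPM at 24 h. The groups at 0 h, at 6 or 12 h and at 24 h did not overlap. Against 0 h the log2 change was -0.80 ± 0.13 at 6 h, -0.97 ± 0.13 at 12 h and -1.64 ± 0.16 at 24 h (adjusted p = 0.000279, 9.55e-05 and 4.6e-06), or 3.11-fold lower at 24 h. The further drop was called from 12 h to 24 h (-0.66 ± 0.15, adjusted p = 0.00784) and from 6 h to 24 h (-0.83 ± 0.15, adjusted p = 0.0011). With sample quality weights neither passed (adjusted p = 0.148 and 0.0602), nor did the drop from 12 h in a fit of those 2 groups alone (adjusted p = 0.0751).

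CDKN2C, which encodes another INK4 inhibitor, fell most at the earliest time. Its level was 12.8, 8.53 and 12.0 CPM at 0 h, 2.43, 2.24 and 1.99 CPM at 6 h, 3.25, 3.85 and 4.55 CPM at 12 h, and 3.64 and 5.12 CPM at 24 h. The lowest normoxic library lay above every hypoxic one, and the 6 h libraries lay below all others. Its log2 fold change was -2.33 ± 0.22 at 6 h (5.02-fold lower, adjusted p = 6.38e-06), -1.51 ± 0.21 at 12 h (adjusted p = 0.000134) and -1.35 ± 0.25 at 24 h (adjusted p = 0.000568). With sample quality weights the 24 h value was -1.44 and was not called (adjusted p = 0.0667). The recovery from 6 h to 24 h was called (0.98 ± 0.25, adjusted p = 0.00783), but was 0.72 without 24 h replicate 2. It was not called with sample quality weights (0.94, adjusted p = 0.366) or in a fit of those 2 groups alone (0.95, adjusted p = 0.0684). Nor was it called with library size alone (0.34, adjusted p = 0.282). A noncoding gene absent from the count table lies opposite 20.4% of the exonic bases of CDKN2C.

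CDKN2A encodes both the INK4A and the ARF proteins from separate first exons, and gene-level counts merge them. It measured 63.8, 59.1 and 61.4 CPM at 0 h, 68.2, 104 and 96.0 CPM at 6 h, 91.0, 90.0 and 85.5 CPM at 12 h, and 92.7 and 232 CPM at 24 h. All hypoxic libraries lay above the normoxic ones, 6 h replicate 1 by the smallest margin, and 24 h replicate 2 stood far above the rest. The log2 fold change was 0.54 ± 0.26 at 6 h (adjusted p = 0.0982) and 0.53 ± 0.26 at 12 h (adjusted p = 0.105), neither of them called, and 1.40 ± 0.29 at 24 h (adjusted p = 0.00107). Without 24 h replicate 2 the 24 h value was 0.57 (adjusted p = 0.0197), and the 6 h and 12 h values of 0.52 and 0.53 then passed the threshold (adjusted p = 0.00469 and 0.00485), as they did without 24 h replicate 1 (0.52 and 0.50). The rise from 12 h to 24 h (0.87 ± 0.29, adjusted p = 0.0384) and from 6 h to 24 h (0.86 ± 0.29, adjusted p = 0.0284) shrank to 0.047 and 0.050 without 24 h replicate 2. Removal of any one library at 0 h or 12 h also cost the rise from 12 h its call (adjusted p from 0.0554 to 0.102), and removal of 6 h replicate 1 did so for the rise from 6 h (0.70, adjusted p = 0.0994).

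CDKN2A (chr9:21967752-21995301) and CDKN2B (chr9:22002903-22009305) are neighbours on the minus strand, and the noncoding CDKN2B-AS1 is read from the other strand, over 15.3% of the exonic bases of CDKN2A. The ratio of CDKN2B to CDKN2A counts per kb, a comparison chosen after the values were seen and not tested, ran from 1.05 to 1.34 in the normoxic libraries. It ran from 0.393 to 0.589 at 6 h and from 0.381 to 0.433 at 12 h, and was 0.221 and 0.112 at 24 h. These values use all exonic bases as length. With the canonical transcript as length, CDKN2B was below CDKN2A at 0 h too, at means of 19.3 and 62.8 CPM per kb. Which of these genes was higher at 0 h therefore rests on the length used, whereas the change of the ratio between libraries does not. CDKN2B-AS1 fell with CDKN2B, from 6.10 ± 0.25 CPM (SD, n = 3) at 0 h to 3.53 ± 0.02 CPM at 6 h, 2.37 ± 0.08 CPM at 12 h, and 2.84 ± 0.99 CPM (n = 2) at 24 h. Its log2 fold changes were -0.79, -1.36 and -1.11, all called. CDKN2D, the remaining INK4 gene, was not called, at 0.08, -0.08 and 0.56 (adjusted p = 0.0507 at 24 h).

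**Figure D3:**
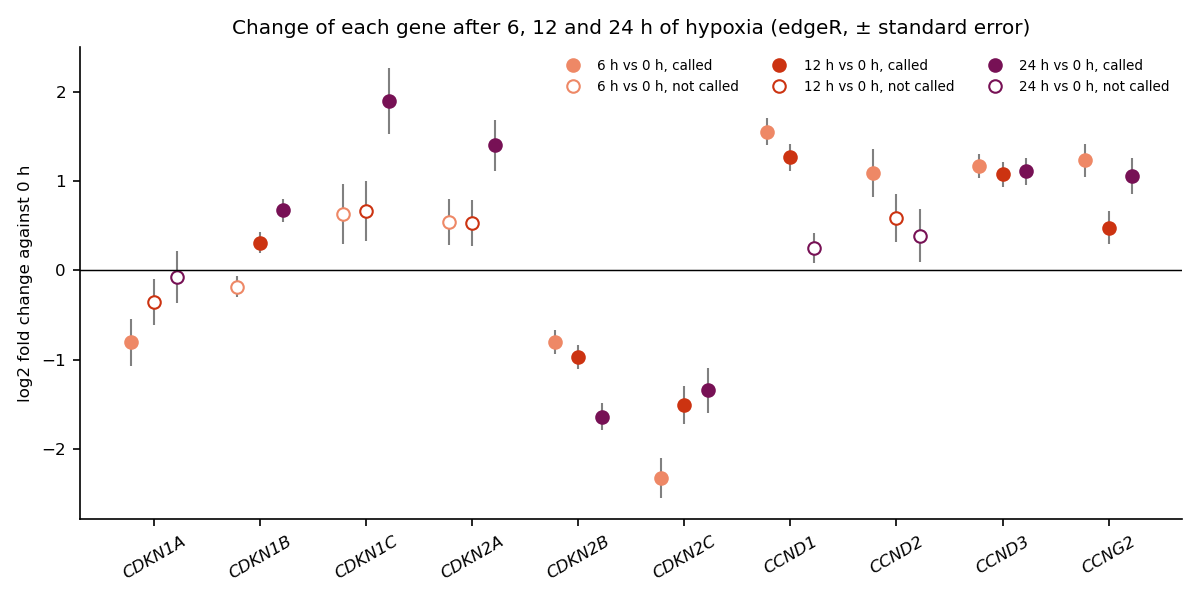
Log2 fold change of each gene against 0 h (y axis) at 6, 12 and 24 h, with error bars of 1 standard error derived from the edgeR test statistic. Filled points passed an adjusted p of 0.05 and open points did not. CCND3 stays near 1.1 at all 3 times, CCND1 returns toward 0 by 24 h, and CDKN2B moves further down with time.

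The Cip/Kip inhibitors moved in different directions. CDKN1A, the inhibitor induced by p53, measured 422, 425 and 475 CPM at 0 h. It was 193, 197 and 365 CPM at 6 h, 432, 283 and 318 CPM at 12 h, and 323 and 512 CPM at 24 h. All 6 h libraries lay below the normoxic ones, with replicate 3 nearest to them, and the later groups overlapped normoxia. The fall was called at 6 h (log2 fold change -0.81 ± 0.26, adjusted p = 0.0203) and the values were -0.35 ± 0.26 at 12 h and -0.08 ± 0.29 at 24 h (adjusted p = 0.273 and 0.832). That fall missed the threshold on removal of 0 h replicate 3 (-0.76, adjusted p = 0.0606), of 6 h replicate 1 (-0.65, adjusted p = 0.0884) and of 6 h replicate 2 (-0.65, adjusted p = 0.0917). The 24 h value was 0.16 without 24 h replicate 1 and -0.47 without replicate 2.

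CDKN1B, an inhibitor whose protein level is known to be set largely by its breakdown, rose late and by small amounts. It was at 33.2, 33.2 and 32.7 CPM at 0 h, 31.2, 28.2 and 27.9 CPM at 6 h, 39.8, 42.1 and 40.9 CPM at 12 h, and 49.3 and 56.1 CPM at 24 h. No 2 of the 4 groups overlapped, and the 6 h libraries were the lowest. The log2 fold change was -0.18 ± 0.12 at 6 h (adjusted p = 0.1997), 0.31 ± 0.12 at 12 h (adjusted p = 0.0413) and 0.67 ± 0.13 at 24 h (1.60-fold, adjusted p = 0.00069). The 12 h call was lost when any one of the 6 libraries at 0 h and 12 h was left out (0.25 to 0.33, adjusted p from 0.0616 to 0.154). The rise from 6 h was called at 12 h (0.49 ± 0.12, adjusted p = 0.0334) and at 24 h (0.86 ± 0.13, adjusted p = 0.000361), the former being lost without any one of the 9 libraries at 0, 6 and 12 h (0.46 to 0.54, adjusted p from 0.0619 to 0.140).

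CDKN1C, an imprinted gene of the same family, was low throughout. It measured 3.67, 3.94 and 4.23 CPM at 0 h, 3.59, 7.04 and 7.66 CPM at 6 h, 5.95, 6.61 and 6.26 CPM at 12 h, and 7.74 and 21.7 CPM at 24 h. The 6 h group overlapped normoxia through replicate 1, the 12 h and 24 h libraries lay above it, and 24 h replicate 2 stood apart. The log2 fold change was 0.63 ± 0.34 at 6 h (adjusted p = 0.132), 0.67 ± 0.34 at 12 h (adjusted p = 0.116) and 1.89 ± 0.37 at 24 h (adjusted p = 0.000789). Without 24 h replicate 2 the 24 h value was 0.95 (adjusted p = 0.0223), and the 6 h and 12 h values of 0.62 and 0.66 passed the threshold (adjusted p = 0.0315 and 0.0248). They did so without 24 h replicate 1 too (0.61 and 0.64), and the 6 h value also without 6 h replicate 1 (0.90, adjusted p = 0.0409). The rises to 24 h from 12 h (1.23 ± 0.37, adjusted p = 0.0258) and from 6 h (1.26 ± 0.37, adjusted p = 0.0152) were 0.29 and 0.33 without 24 h replicate 2, and the former was not called without any one of the 12 h libraries either (1.19 to 1.25, adjusted p from 0.0626 to 0.0719).

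Scaled per kb of exonic bases, CDKN1A was the most abundant of the 10 genes in every group, at 147 ± 9.96 CPM per kb (SD, n = 3) at 0 h and 84.0 ± 32.6 CPM per kb at 6 h. At 0 h it was followed by CDKN2B (18.6 ± 1.62), CDKN2A (15.8 ± 0.60), CCND2 (14.9 ± 0.18), CCND1 (13.6 ± 0.78) and CCND3 (6.89 ± 0.69), in CPM per kb. CDKN2C, CDKN1B, CCNG2 and CDKN1C came last, at 3.67 ± 0.75, 3.57 ± 0.03, 2.59 ± 0.37 and 1.59 ± 0.11 CPM per kb, and CDKN2C and CDKN1B differed by less than their SDs. At 24 h CDKN2A was at rank 2 (41.8 ± 25.4 CPM per kb, n = 2) and CDKN2B at rank 6 (5.98 ± 1.01 CPM per kb). The first place of CDKN1A held with the canonical transcript as length, whereas CCND3 was then at rank 3 at 0 h and CDKN2A at rank 2 in every group. The log2 ratio of CDKN1A to CDKN1B per kb was 5.36 ± 0.11 at 0 h, 4.68 ± 0.58 at 6 h, 4.68 ± 0.35 at 12 h and 4.58 ± 0.34 (n = 2) at 24 h. It was lower by 0.71 on average in the hypoxic libraries (8 against 3, 2-sided exact permutation test, p = 0.0364), where the smallest p this design can give is 0.0121. Adjusted over the 2 ratios tested, the p was 0.0727 and did not pass, and the unadjusted p ran from 0.05 to 0.133 without any one library other than 6 h replicate 3.

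Among the hypoxic times, the fewest of the 10 genes were called between 6 h and 12 h. From 6 h to 12 h, 2 of the 10 were called, CDKN1B upward and CCNG2 downward, beside 4.95% of all tested genes (1.88% higher and 3.07% lower). From 12 h to 24 h, 4 were called, CDKN1C and CDKN2A higher and CDKN2B and CCND1 lower, beside 28.4% of all genes (15.1% higher and 13.3% lower). From 6 h to 24 h, 6 were called, with CDKN1B, CDKN1C, CDKN2A and CDKN2C higher and CDKN2B and CCND1 lower, beside 42.4% of all genes (22.1% higher and 20.3% lower). The count from 6 h to 12 h was 0 to 4 with any single library left out (0 without any one of 0 h replicates 1 to 3, 6 h replicates 1 and 2 and 12 h replicates 1 to 3, 1 without 6 h replicate 3, and 4 without either 24 h library). The count from 12 h to 24 h was 2 without any one of the 12 h libraries.

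The direction of several changes rests on the scaling of libraries. Scaling by library size alone moved the median log2 fold change of all genes to -0.32 at 6 h, -0.50 at 12 h and -0.97 at 24 h. The calls were then 4 higher and 4 lower at 6 h, 2 and 3 at 12 h, and 1 and 5 at 24 h. CDKN1C was the gene still called higher at 24 h, at 0.83. CCND3 and CCNG2 were 0.16 and 0.14 there and were not called, and CCND1, CCND2 and CDKN1B turned to -0.65, -0.67 and -0.26. CDKN2B and CDKN2C were called lower at all 3 times under either scaling.

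**Figure D4:**
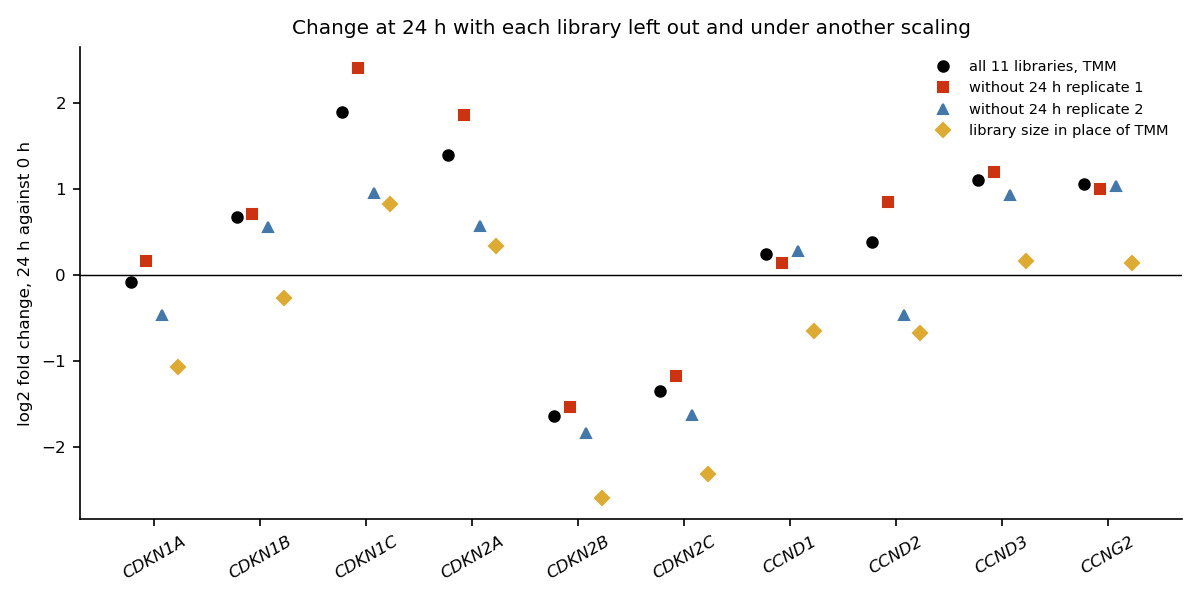
Log2 fold change at 24 h against 0 h (y axis) for each gene with all 11 libraries, without either 24 h library, and with library size in place of TMM factors. CDKN2B and CDKN2C stay below 0 in all 4, CDKN1C and CDKN2A lie lower without replicate 2, and CCND2 changes sign between the libraries.

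Among the genes that act beside these in G1, CCNE1 and CDK2 rose at all 3 times. Counts for this list and the 3 lists after it are descriptions, to be read against the 52.8%, 51.2% and 61.2% of all tested genes that were called at 6, 12 and 24 h. Of 8 G1 genes (CDK2, CDK4, CDK6, CCNE1, CCNE2, CDKN2D, CCNG1 and CCNI), 3 were called at 6 h, all of them higher, 3 were higher and 1 lower at 12 h, and 5 were higher and 1 lower at 24 h, with medians of 0.11, 0.27 and 0.59. CCNE1, the cyclin that activates CDK2 late in G1, rose by 1.40, 0.66 and 0.99 on the log2 scale at the 3 times, and CDK2 by 0.44, 0.46 and 0.37. Named for its role after its values were seen, CDK6, a kinase partner of the D cyclins, went from 77.5 ± 4.39 CPM (SD, n = 3) at 0 h to 271 ± 52.8 CPM at 6 h, 184 ± 19.7 CPM at 12 h, and 97.3 and 100.2 CPM in the 24 h libraries. It was called at 6 h (1.81) and 12 h (1.25) and was 0.35 at 24 h (adjusted p = 0.0999). CDK4, the other partner, was called at 24 h (0.63) and was 0.11 and 0.09 before. With library size alone the medians of these 8 genes were -0.21, -0.20 and -0.39.

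Of 13 pocket protein and E2F genes, 5 rose and 5 fell at 6 h, 3 rose and 3 fell at 12 h, and 2 rose and 6 fell at 24 h, with medians of -0.28, -0.23 and -0.17. RBL1, a relative of the retinoblastoma gene, fell by 1.73, 1.04 and 1.69 on the log2 scale, and the repressor E2F7 fell by 1.11, 0.83 and 1.46. E2F4, which acts with pocket proteins in resting cells, rose by 0.88, 0.93 and 0.70. Of 19 genes that regulate the inhibitors and D cyclins, 7 rose and 6 fell at 6 h, 5 and 6 at 12 h, and 3 and 6 at 24 h, with medians of -0.16, -0.21 and -0.08. CBX7, a Polycomb protein known to silence the CDKN2A locus, dropped from 7.62 ± 0.33 CPM (SD, n = 3) at 0 h to 0.768 ± 0.24 CPM at 6 h (log2 fold change -3.27) and stayed low at 12 h (-3.16) and 24 h (-3.93). FOXO1 fell by 1.31, 0.76 and 1.72, and MXI1, a MYC antagonist and known HIF target, rose by 1.38, 1.66 and 1.66. FOXO3 and FOXO4, of the same list, were named after their values were seen. FOXO3 had a mean of 94.1 CPM at 0 h, beside 38.3 CPM for FOXO1. It was called higher at 6 h (0.93) and 12 h (0.41) and was -0.24 at 24 h, which was not called. FOXO4 was called only at 24 h (-0.48). CDKN2B-AS1, described above, belongs to the same list.

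Of 16 genes of S phase to mitosis, 3 rose and 5 fell at 6 h, 2 rose and 4 fell at 12 h, and 2 rose and 4 fell at 24 h, with medians of -0.36, -0.27 and -0.12. TOP2A, a topoisomerase of dividing cells, fell by 0.90, 1.07 and 1.18 on the log2 scale. CCNB2, a mitotic cyclin, fell by 1.37, 1.11 and 0.53, and MCM6, a subunit of the replicative helicase, by 0.93, 0.53 and 0.40. MCM7, another subunit of that helicase, was named after its values were seen. It rose by 0.37, 0.48 and 0.95, and each rise was called. Of the 16, at most 8 were called at each time, and their part in the changes of the inhibitors and D cyclins was not tested. All 4 lists were chosen with earlier results of these data known.

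**Figure D5:**
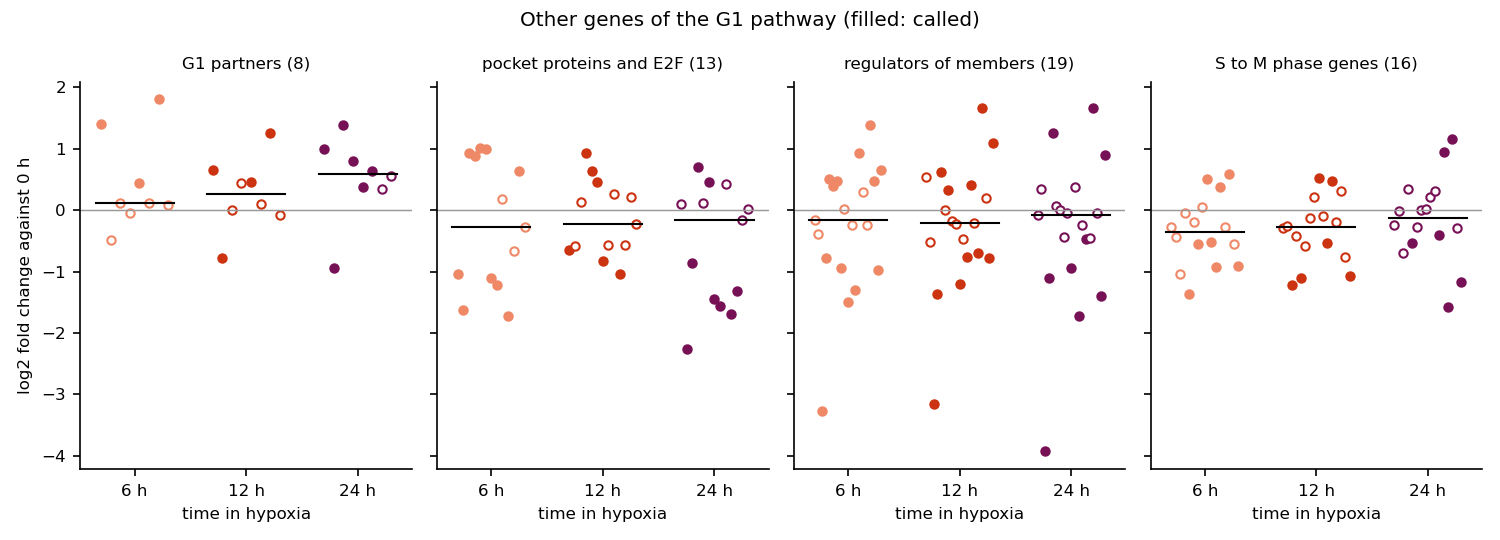
Log2 fold change against 0 h (y axes) at 6, 12 and 24 h for the genes of 4 lists, with the number of genes in each title. Filled points passed an adjusted p of 0.05, open points did not, and bars are medians. The medians of the G1 partners are above 0 and those of the other 3 lists below 0 at each time, and the lowest point in the list of regulators is CBX7.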

How the data were processed

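Total RNA of 11 RWPE1 libraries was sequenced as single-end reads from a stranded kit. According to the study's methods and the submitters' processing notes, the authors trimmed the reads with Trimmomatic, aligned them with STAR to GRCh38 (hg38) and counted them per gene with featureCounts. The strand setting and the handling of reads with several matches are not given in the sources used here. The deposited values are raw counts per gene, with no normalization.

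Genes were kept with the defaults of filterByExpr grouped by time (minimum count 10), which left 19981 of 60676. Counts were scaled by TMM and tested with edgeR 4.0.16 (R 4.3.3), using the quasi-likelihood test on all 11 libraries with time point as the only term, and genes were called at an adjusted p under 0.05 (Benjamini-Hochberg over all tested genes). Sharing 1 estimate of the spread serves the 24 h group, which has 2 libraries. Printed folds come from this fit. Each standard error was derived from its test, as the absolute log2 fold change divided by the square root of the F statistic. The 2 within-library ratios were compared with exact permutation tests. Gene positions, exonic lengths and overlaps are from GENCODE 44. The 10 genes were named with all their values, and other genes were named by a rule: from each list, up to 3 genes with the largest average change among those called in 1 direction at all 3 times, the 5 genes most like CCNG2 and CCND1, CDKN2D, CDKN2B-AS1, CA9 and EGLN3. CDK4, CDK6, LTO1, MCM7, FOXO3, FOXO4 and the markers given with values fall outside it and were named after their values were seen. The members and lists were chosen with earlier results of these data known. Alternatives were limma-voom 3.58.1 with and without sample weights, DESeq2 1.42.0, median-of-ratios factors, library size alone, other count filters, a replicate block, fits on 2 groups and each library left out. The tests were tried on simulated data first. No 2 libraries of a group agreed within sampling noise (chi-square per degree of freedom at least 3.20).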

Additional observations from a re-analysis of the deposited data

Results flagged for a closer look

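The effects against 0 h differed between times of hypoxia in 12 cases, by the direct edgeR test between the times. From 6 h to 12 h the log2 difference was 0.49 for CDKN1B and -0.75 for CCNG2. From 12 h to 24 h it was 1.23 for CDKN1C, 0.87 for CDKN2A, -0.66 for CDKN2B and -1.02 for CCND1. From 6 h to 24 h it was 0.86 for CDKN1B, 1.26 for CDKN1C, 0.86 for CDKN2A, 0.98 for CDKN2C, -0.83 for CDKN2B and -1.30 for CCND1. Values for CDKN1C and CDKN2A between 12 h and 24 h rest on 24 h replicate 2, without which they were 0.29 and 0.047. The same holds from 6 h to 24 h, where they were 0.33 and 0.050 without it, and that of CDKN2C was 0.72. The CDKN2C change from 6 h to 24 h was not called with sample weights (adjusted p = 0.366) or in a fit of the 2 groups (adjusted p = 0.0684). The calls of CDKN1B and CCNG2 from 6 h to 12 h were lost on removal of most single libraries, as given above. The drops of CDKN2B and CCND1 to 24 h were called without any single library, but from 12 h neither was called in a fit of the 2 groups (adjusted p = 0.0751 and 0.0658), and those of CDKN2B were not called with sample weights (adjusted p = 0.148 from 12 h and 0.0602 from 6 h).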

How the results depend on the processing

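The numbers of the 10 genes called against 0 h stayed within 1.5 times under every alternative except sample weights at 12 h (10 called). From 6 h to 12 h the count was 5 with sample weights, 0 with library size alone, 0 with the replicate block, and 0 to 4 with single libraries left out. From 12 h to 24 h it was 2 with limma-voom, 1 with sample weights, 0 in a fit of the 2 groups, and 2 to 5 with single libraries left out. From 6 h to 24 h it was 2 with sample weights and 3 in a fit of the 2 groups. Where edgeR called 0 of the 10, 4 (library size alone and replicate block, 6 h to 12 h) and 5 (2 groups, 12 h to 24 h) had an unadjusted p under 0.05, and DESeq2 called 3 and 6 and limma-voom 2 and 2. Over all genes, 989 were called from 6 h to 12 h, against 4489 with sample weights, 1893 with DESeq2, 1674 without a filter, 1876 in a fit of the 2 groups, 510 with the block, and 61 to 3649 with single libraries left out. From 12 h to 24 h, 5668 were called, against 1093 with sample weights, 0 in a fit of the 2 groups (edgeR, 5671 at an unadjusted p under 0.05), and 3068 to 9491 with single libraries left out. With sample weights 2531 in place of 8479 were called from 6 h to 24 h (3916 in a fit of the 2 groups), and 6169 in place of 12235 at 24 h against 0 h.

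With library size alone CDKN1B turned to -0.16 at 12 h and -0.26 at 24 h, CCND1 and CCND2 turned to -0.65 and -0.67 at 24 h, the median of the 10 genes at 24 h to -0.46, and the medians of the 8 partner genes to -0.21, -0.20 and -0.39. With single libraries left out, the 24 h value ran from -0.47 to 0.16 for CDKN1A and from -0.46 to 0.85 for CCND2. The log2 ratio of CCND1 to CCND3 differed between hypoxia and normoxia by -0.081 to 0.14 and that of CDKN1A to CDKN1B by -0.81 to -0.65. Over the changes against 0 h and the called changes between hypoxic times, 714 alternative values kept direction and side of the threshold, 32 newly passed it, 87 no longer passed and 7 turned sign. Changes between hypoxic times that were not called are outside this tally, and some of them passed or turned sign too. The cause was not tested.

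Same-numbered libraries of different times correlated between -0.16 and 0.21 (15 pairs, 2 over 0.1), so the numbers were not taken to pair the samples. With the replicate block CDKN1A at 24 h was 0.030, and CDKN1B at 12 h was no longer called (adjusted p = 0.0676), nor was CDKN2A from 12 h to 24 h (0.79, adjusted p = 0.0631) or CDKN1B and CCNG2 from 6 h to 12 h. CDKN1A (higher) and CCND2 (lower) were called from 6 h to 24 h with the block (adjusted p = 0.0457 and 0.0315). The 24 h group of 2 libraries, of which replicate 2 had the lowest TMM factor, limits every statement about 24 h.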
